A study of Mus musculus with 2 samples.

Results

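The genes described here encode the 5 complexes of oxidative phosphorylation. They were chosen by name alone, as every row of the gene list whose symbol marks a protein-coding mitochondrial gene, a complex I (*Nduf*), II (*Sdh*), III (*Uqcr*), IV (*Cox4* to *Cox8*) or V (*Atp5*) gene, with pseudogene names left out. The rule found 105 of 27998 genes, 13 encoded by the mitochondrial genome (mt- genes) and 92 by the nucleus. By the start of their symbols, 45 nuclear genes fell to complex I, 4 to II, 8 to III, 18 to IV and 17 to V. This places *Ndufa4*, now counted with complex IV, in complex I, and *Atp5sl*, which RefSeq names *Dmac2*, in complex V. The complex I names included 7 *Ndufaf* assembly factors, which help build the complex and are not part of it.

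Oxidative phosphorylation takes place at the inner mitochondrial membrane. Complexes I and II pass electrons from NADH and succinate to ubiquinone, complex III hands them to cytochrome c, complex IV reduces oxygen, and complex V makes ATP from the resulting proton gradient. Complexes I, III, IV and V are mosaics of subunits made inside the mitochondrion and subunits imported from the cytosol, whereas all subunits of complex II are nuclear. Pituicytes are the glial cells of the neurohypophysis, where they surround the terminals of hypothalamic neurons that release oxytocin and vasopressin into the blood.

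Single-cell transcriptomes were measured with the 10x Chromium droplet method in 2 pools of neurohypophyses. Each pool came from 5 male C57BL/6 mice of 3 months, with no treatment, and parts of the neighbouring intermediate lobe (IL) were dissected along with the tissue. After the filters of the study, 273 cells of pool 1 with 699676 UMIs (unique molecular identifiers, each standing for 1 captured transcript) and 255 cells of pool 2 with 726706 UMIs were described. No barcode was shared between the pools. The cells fell into the 11 clusters of the authors' table, grouped into 7 cell types. Types were compared with each other within the same mice, since the study has no treated group.

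The cell type labels were compared with marker lists. Some listed genes, among them most pituicyte markers, were picked by the paper from these same cells. The comparison is therefore no independent check of the labels. Each of the 7 lists had its highest summed level in the type it names, in both pools, among them 7193 and 7472 CPM (UMIs in every 1000000 of the summed cells) for 8 pituicyte markers in pituicytes, against at most 662 elsewhere. The 2 clusters that the authors' table calls neural progenitors carried the IL markers, led by *Pomc*, at 126622 and 96325 CPM and are called IL cells here. The VLMC (vascular and leptomeningeal cells) of pool 1 held more oligodendrocyte markers (19197 CPM) than markers of their own list (18137), and the epithelial-like cells of pool 1 held 35357 CPM of anterior lobe hormone genes beside 5643 of their own markers. Their part in the values of these small types was not tested. Pituicytes (235655 and 253480 UMIs) and IL cells (281271 and 249540) were the most deeply covered, followed by macrophage/microglia (88668 and 107910) and T-cell like cells (54928 and 29088), whereas vascular endothelia and VLMC held at most 15098 UMIs in a pool.

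UMIs were found for 103 of the 105 genes. *Cox7b2* and *Cox8c*, isoforms best known from testis, had 0 of 1426382 UMIs, which allows up to 2.10 CPM, for counting error only. A filter on low counts left 85 genes for testing, 12 mt- genes (all but *mt-Nd6*) and 73 nuclear genes. A gene could pass this filter through 1 type alone, so the tested genes do not stand for all 105.

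The 13 mt- genes are transcribed as long precursors that are cut into single messages, and a few neighbours stay joined. Their overlaps are shown because bases shared by neighbouring genes can make the assignment of short reads uncertain. The end of *mt-Atp8* and the start of *mt-Atp6*, both subunits of complex V, share 43 bases of the mitochondrial genome (GRCm38, chrM:7927-7969, forward strand). *mt-Nd4l* and *mt-Nd4*, both of complex I, share 7 bases (chrM:10167-10173, forward strand). In the stretches below, the capitals are the shared bases and the lower-case letters are the flanking bases.
mt-Atp8/mt-Atp6: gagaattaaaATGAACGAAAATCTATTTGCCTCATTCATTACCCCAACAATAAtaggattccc
mt-Nd4l/mt-Nd4: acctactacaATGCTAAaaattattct
Both shared stretches open with the ATG of the downstream gene. How reads of these pairs were assigned was not tested, so counts of *mt-Atp8* and *mt-Nd4l* are uncertain against those of their neighbours. *mt-Nd6*, the single member on the light strand, overlaps *mt-Nd5* by 14 bases on the other strand.

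Pituicytes had the largest share of UMIs on mt- genes. It was 16.2% in pool 1 and 12.3% in pool 2 (14.3% ± 2.81, SD, n = 2 pools), and both pools lay above both pools of each of the other 6 types. IL cells had 10.3% and 9.78%, epithelial-like cells 10.6% and 9.31%, and VLMC 8.61% and 10.3%, values that overlapped with each other. Vascular endothelia (6.03% and 7.76%) and macrophage/microglia (5.62% and 6.48%) were lower and overlapped, and T-cell like cells were lowest at 4.67% and 3.89% (4.28% ± 0.555), below both pools of every other type. With 2 pools a type, no exact test between a pair of types can reach a p of 0.05, so the shares are described by their overlap. The paper proposes that cell types differ in how well they withstand dissociation. The part of dissociation or cell damage in these mt- shares was not tested.

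The nuclear genes had another order. Measured against UMIs outside mt- genes, so that a high mt- share does not lower it by construction, the nuclear share was highest in pituicytes (2.82% and 3.27%), where it overlapped with epithelial-like cells (2.91% and 2.57%). It was 2.67% and 2.45% in IL cells, 2.72% and 2.49% in VLMC, 2.43% and 2.10% in T-cell like cells and 2.26% and 2.07% in vascular endothelia. Macrophage/microglia had the lowest share, 1.84% and 1.69%, below both pools of all other types. T-cell like cells thus stood last for mt- genes but not for nuclear genes.

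**Figure D1:**
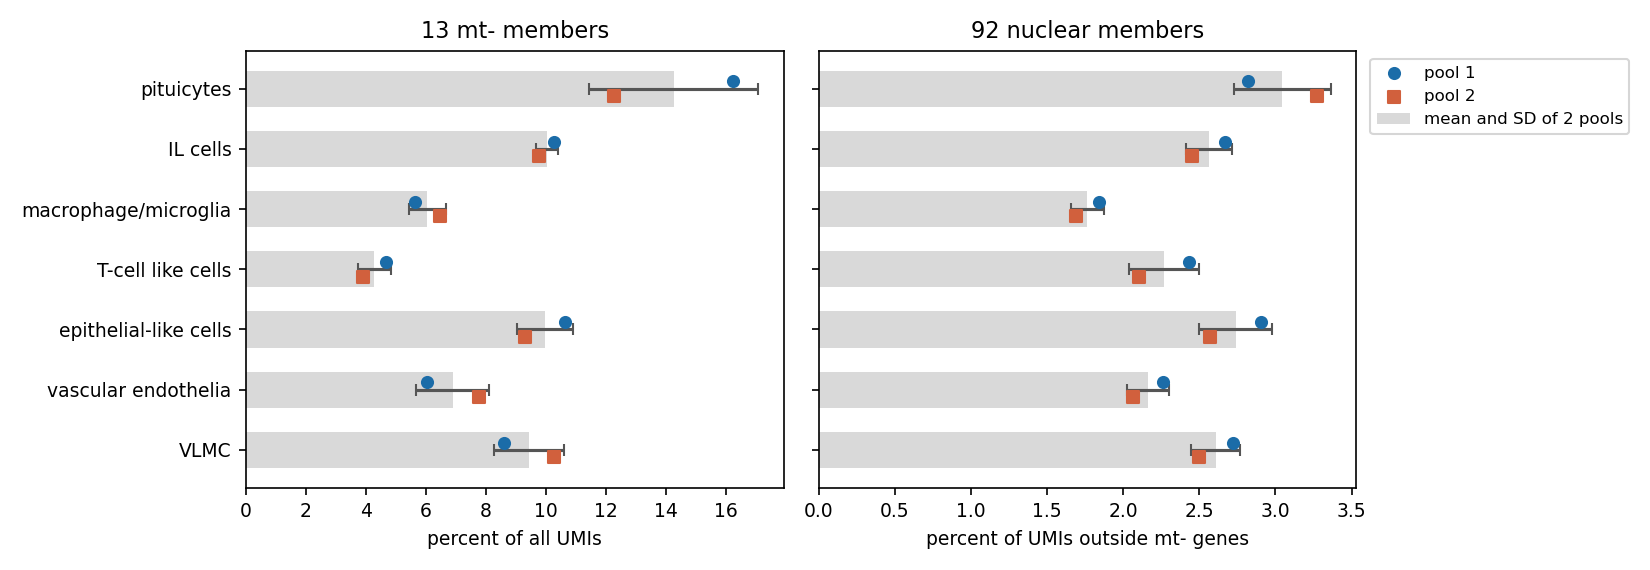
Share of UMIs on the 13 mt- genes (left, percent of all UMIs) and on the 92 nuclear genes (right, percent of UMIs outside mt- genes) in the 7 cell types. Bars are means of 2 pools with the SD, circles pool 1 and squares pool 2. The pituicyte pools, at 16.2% and 12.3%, lie above all others on the left, and the macrophage/microglia pools, at 1.84% and 1.69%, lie below all others on the right.

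Single cells varied widely within a type. The median mt- share was 17.2% over 108 pituicytes of pool 1 and 12.5% over 88 of pool 2, with a range from 0.982% to 24.9% in pool 1. In T-cell like cells, by contrast, the 26 cells of pool 1 stayed between 1.34% and 8.33% and the 16 of pool 2 between 2.27% and 5.65%. The pituicyte distribution reached the filter of 25% that the study set on the mitochondrial share, with 32 kept cells of pool 1 and 7 of pool 2 between 20% and 25%. Barcodes that failed this filter alone numbered 83, and 54 of these carried pituicyte markers above those of other types. When all such cells were typed by markers and none was removed for its mt- share, the pituicyte share was 17.98% and that of IL cells 11.2%.

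**Figure D2:**
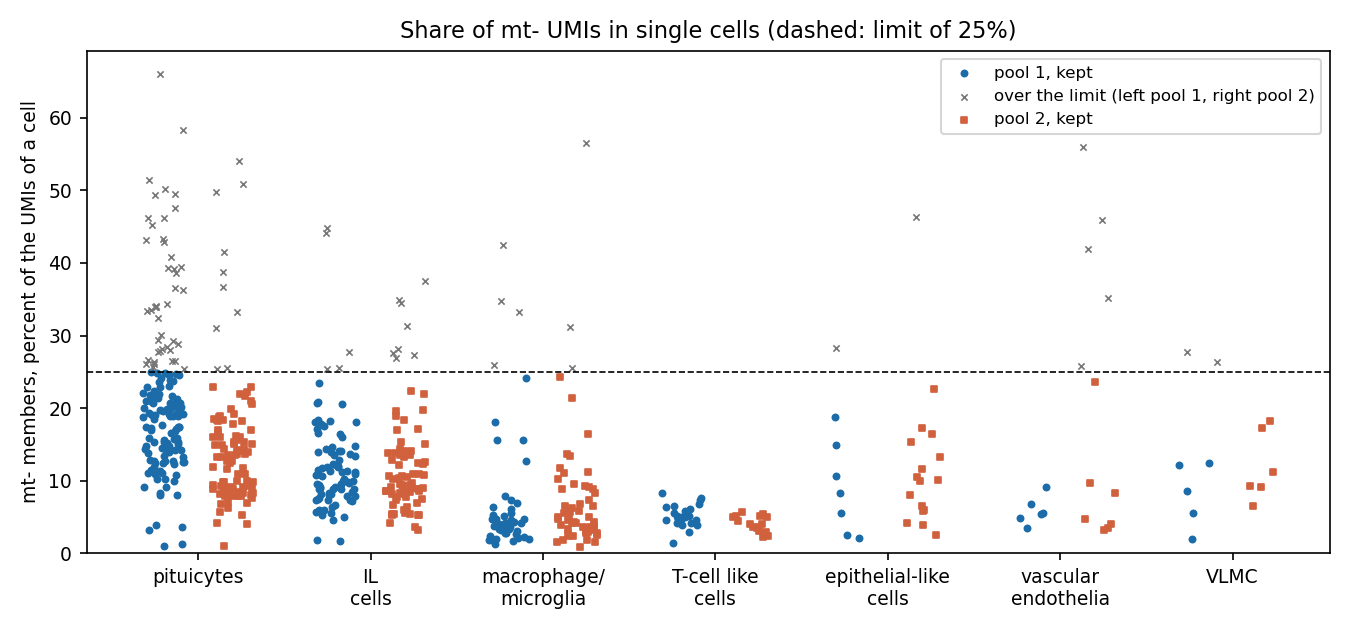
Share of mt- UMIs in each cell by type, pool 1 on the left of each column and pool 2 on the right. Gray crosses are barcodes removed by the 25% filter alone (dashed line), typed by marker genes. Pituicytes run up to the line and hold 54 of the 83 crosses, whereas no T-cell like cell exceeds 8.33%.

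RNA outside cells was rich in mt- transcripts. Barcodes of pool 1 with 1 to 50 UMIs, taken as free RNA, had 50.6% of their UMIs on mt- genes (95% Wilson interval 50.5% to 50.6%, counting error only), and 3.61% of the rest on nuclear members. From the *Pomc* UMIs of macrophage/microglia and T-cell like cells, and with the profile of pool 1 for both pools, such RNA was estimated to make up 6.10% of the UMIs of cells in pool 1 and 5.19% in pool 2, which would add mt- UMIs worth 3.09% and 2.63% of each type's total. After subtraction the mt- share was 13.9% and 10.1% in pituicytes and 7.62% and 7.50% in IL cells. It was 2.67% and 4.02% in macrophage/microglia and 1.67% and 1.32% in T-cell like cells. Under this estimate the order of these types stayed and their ratios grew. The estimate cannot hold for every cell, as single cells of pool 1 had mt- shares down to 1.25% (macrophage/microglia) and 1.34% (T-cell like cells).

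Differences of single genes were tested on UMIs summed per type and pool, with edgeR's quasi-likelihood test of each type against the mean of the other 6. A gene is called where its p, adjusted by Benjamini and Hochberg's method over 4510 genes, does not exceed 0.05. Types were built from the same counts, so these p-values are smaller than independent labels would give. The normalization (TMM) matters here, because its factors ran from 0.681 in a large sum to 1.81 in a small one and moved the median log2 fold change of all genes to 0.59 in pituicytes and 0.55 in IL cells. With scaling by library size alone these medians were 0.39 and 0.22. Counts are therefore given under both scalings, and a gene is said to be higher or lower only where both call it.

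All 12 tested mt- genes were higher in pituicytes under both scalings. DESeq2 called 8 of the 12, without *mt-Atp8*, *mt-Nd2*, *mt-Nd3* and *mt-Nd5*. Of all genes, 20.9% were called higher in pituicytes with TMM and 14.9% with both scalings. The median log2 fold change of the mt- genes was 1.21 with TMM and 0.94 with library size, against 0.59 and 0.39 for all genes. *mt-Co1*, the catalytic core of complex IV, had 29772 and 24964 CPM in the pituicyte pools, against 20962 and 18406 in IL cells and at most 17446 in any other pool, a log2 fold change of 1.48 ± 0.24 (SE, adjusted p = 1.49e-08, edgeR). *mt-Co3*, another core subunit of complex IV, stood at 37058 and 28322 CPM, above the highest value elsewhere of 24590. *mt-Cytb*, the mitochondrial subunit of complex III, had 15905 in pool 1 and 12171 in pool 2, the latter just above the 12013 of VLMC in pool 1. Without pool 1 of the pituicytes, 6 of the 12 were called, and *mt-Nd5* had an adjusted p of 0.321 in edgeR. When only cells with an mt- share under 10% were summed, a limit on the measured share itself, none of the 12 was called. The pituicyte share was then 6.79%, beside 7.35% in IL cells. This limit removed most pituicytes, as their mt- share had a lower quartile of 12.8% in pool 1 and a median of 12.5% in pool 2. The share of all genes called in that fit is not given. The largest fitted change, 2.65 ± 0.44 for *mt-Nd4l* (adjusted p = 3.22e-08, edgeR), leaned on VLMC, where the gene had 0 of 23589 UMIs, allowing up to 127 CPM. Pituicytes held 416 and 209 CPM of *mt-Nd4l* against 210 and 184 in IL cells, and in a fit of the 4 largest types alone its change was 1.51.

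*mt-Atp6* of complex V, at 32369 and 23371 CPM in pituicytes, and *mt-Nd1* (15170 and 11516) and *mt-Nd4* (10422 and 7405) ranked likewise. *mt-Co2* (12989 and 9153) did so with 2 exceptions. VLMC of pool 2 (10332) and epithelial-like cells of pool 1 (196 of 19317 UMIs) lay above pituicytes of pool 2. *mt-Nd2* had 5334 and 3933 CPM in pituicytes and 4358 and 4570 in VLMC, so that these overlapped. Epithelial-like cells of pool 1 (95 of 19317 UMIs of *mt-Nd2*) also lay between the pituicyte pools. The sparser genes separated the types less clearly. *mt-Atp8*, with 569 and 284 CPM in pituicytes and 395 and 305 in IL cells, overlapped between both. *mt-Nd5* had 1129 and 548 CPM in pituicytes, and only pool 1 exceeded the 777 of epithelial-like cells in pool 1. *mt-Nd3* had 1256 and 793 CPM in pituicytes and 942 and 1258 in VLMC, which thus overlapped. Epithelial-like cells (17 of 19317 and 50 of 59102 UMIs of *mt-Nd3*) lay between the pituicyte pools. For *mt-Nd6*, which was not tested, pituicytes had 20 and 21 UMIs and T-cell like cells 0 and 1.

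In IL cells, 7 mt- genes were called higher with TMM and 3 with both scalings, where all genes had 21.8% and 12.2%. The 3 were *mt-Co1* (log2 fold change 1.05 ± 0.25, adjusted p = 0.000235, edgeR), *mt-Cytb* (0.93 ± 0.25) and *mt-Nd4l* (2.00 ± 0.50). Without pool 1 of the IL cells, *mt-Co1* and *mt-Cytb* lost their calls, at adjusted p of 0.0768 and 0.0752 in edgeR. The call of *mt-Co1* was also lost with DESeq2, that of *mt-Cytb* with the 10% limit and with types from marker lists, and that of *mt-Nd4l* with all 3 of these and in the fit of the 4 largest types.

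In T-cell like cells, 5 mt- genes were lower under both scalings, where 2.99% of all genes were. These were *mt-Nd4* (−1.06 ± 0.30, adjusted p = 0.00504, edgeR), *mt-Cytb* (−1.01 ± 0.30), *mt-Co3* (−0.89 ± 0.29), *mt-Co2* (−0.88 ± 0.30) and *mt-Co1* (−0.85 ± 0.29). Library size called 9, beside 4.77% of all genes. *mt-Co3* was at 10341 and 8457 CPM there, below both pools of every other type, of which macrophage/microglia came nearest at 12496 and 15272. The calls rested on having both pools of the T-cell like cells. The 10% limit left 0 calls with TMM. It removed no T-cell like cell, as their mt- shares reached 8.33% at most, and took only cells of the other types. It thus lowers the mt- level that these cells are set against, by construction. In a fit of the 4 largest types alone, 10 mt- genes were called lower. That fit tested 7353 genes and set each type against the others in it. Its count therefore does not compare directly with the 5, and its share over all genes is not given.

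In vascular endothelia, TMM called 6 mt- genes and *Atp5l* lower (0.732% of all genes), led by *Atp5l* (−1.72 ± 0.52, 4 and 4 UMIs), *mt-Cytb* (−1.34 ± 0.32) and *mt-Nd1* (−1.25 ± 0.31). Library size called none of the 7, and with either endothelial pool left out TMM called none. edgeR called no mt- gene higher or lower in macrophage/microglia with TMM, beside 19.8% and 1.24% of all genes. None had an unadjusted p under 0.05 there, and DESeq2 called none. Library size called 4 lower, beside 3.48% of all genes, among them *mt-Co1* (8819 and 8405 CPM). With TMM none of the 85 genes was called in epithelial-like cells, where 8.43% of all genes were higher and 0.222% lower, or in VLMC (2.88% and 2.22%), although 6 and 11 had an unadjusted p under 0.05. DESeq2 called none there either, and library size called 2 nuclear genes higher in epithelial-like cells (9.71% of genes), *Atp5a1* among them.

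**Figure D3:**
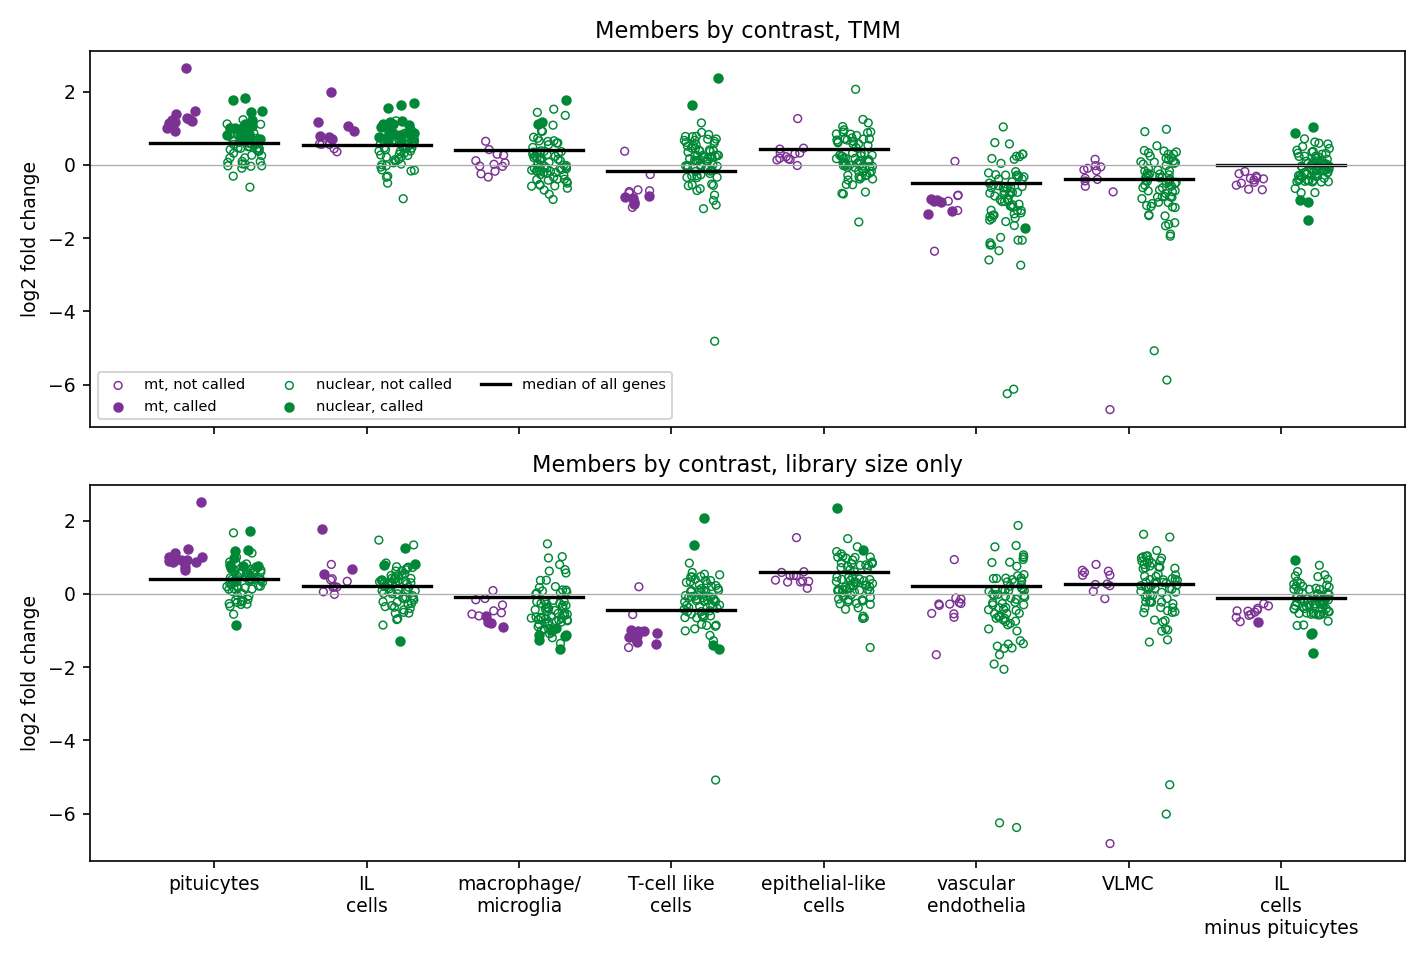
Log2 fold changes of the tested mt- (purple) and nuclear (green) genes in each contrast, with TMM above and with library size below. Filled points were called, and black lines mark the median of all genes, 0.59 with TMM and 0.39 with library size for pituicytes. The lowest points of the small types are genes with 0 UMIs there, whose fitted values have no fixed size. The 12 mt- points of pituicytes are filled in both panels.

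The nuclear genes lay near all genes in some types and apart from them in others. In pituicytes their median log2 fold change was 0.65 with TMM and 0.40 with library size, beside 0.59 and 0.39 for all genes. TMM called 22 of 73 higher (30.1%, beside 20.9% of all genes) and library size 8 (10.96%, beside 14.9%), so the side on which the members fell turned with the scaling. In IL cells the medians were 0.64 and 0.27, beside 0.55 and 0.22, with 20 (27.4%) and 3 (4.11%) called higher, beside 21.8% and 12.2%. With TMM none of the 85 genes was lower in pituicytes or IL cells, beside 1.37% and 2.79% of all genes. Library size alone called *Cox7a2l* lower in pituicytes (2.17% of genes) and *Cox5a* lower in IL cells (4.21%). In macrophage/microglia the median of the nuclear genes was below that of all genes, 0.03 beside 0.42 with TMM and −0.53 beside −0.09 with library size, and the direction of the calls turned with the scaling. TMM called 3 higher and none lower, beside 19.8% and 1.24% of all genes, whereas library size called none higher and 7 lower, beside 12.9% and 3.48%. In T-cell like cells the median of the nuclear genes was above that of all genes, 0.17 beside −0.17 with TMM and −0.14 beside −0.44 with library size, and in vascular endothelia it was below, −0.83 beside −0.49 and −0.12 beside 0.22.

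In pituicytes, 8 nuclear genes were higher under both scalings, and they are named after their values were seen. DESeq2 called 3 nuclear genes higher there, a count without its share over all genes, and *Ndufb3*, *Ndufa4* and *Sdhb* were not among them. The 10% limit, which removed most pituicytes, also ended the calls of *Ndufa4* and *Sdhb*. Of the 8, 5 encode subunits of complexes I and IV. *Cox6c*, a small subunit of complex IV, had 1668 and 2028 CPM in pituicytes, and both pools lay above the 1398 of epithelial-like cells in pool 1, the highest value elsewhere. Its log2 fold change was 1.44 ± 0.25 (adjusted p = 1.81e-07, edgeR), and it stayed called in all 11 alternatives tried. *Ndufb3*, an accessory subunit of complex I, had 310 and 268 CPM in pituicytes and 224 and 208 in IL cells (1.47 ± 0.34), although 7 and 3 UMIs gave pool 1 of epithelial-like cells 362 and of VLMC 353. *Ndufa4*, first placed in complex I and now counted with complex IV, had 513 and 635 CPM (0.96 ± 0.26), and was as high in VLMC at 589 and 662. *Ndufa7* and *Ndufs5*, both accessory subunits of complex I, had log2 fold changes of 1.02 ± 0.27 and 1.04 ± 0.29.

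The other 3 belong to complexes II and III. *Uqcr11* and *Uqcr10* encode small subunits of complex III. *Uqcr11* had 675 and 777 CPM in pituicytes, above both pools of all other types, with IL cells next at 562 and 525 (1.23 ± 0.26, adjusted p = 3.81e-05, edgeR). *Uqcr10* had 526 and 663 CPM (0.999 ± 0.27), above the 471 of VLMC in pool 1, the highest value elsewhere. *Sdhb*, the iron-sulfur subunit of complex II, had 132 and 146 CPM in pituicytes but 0 of 23834 UMIs in vascular endothelia, and its fitted change of 1.84 ± 0.56 was 0.60 in the fit of the 4 largest types, where it was not called (adjusted p = 0.221, edgeR). Without pool 2 of the pituicytes, *Ndufa4*, *Ndufa7* and *Uqcr10* missed the threshold. *Ndufb8* (1.76 ± 0.56), a complex I subunit with no UMI in vascular endothelia, was among the largest TMM changes and was not called with library size.

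In IL cells, 3 of 73 nuclear genes (4.11%) were higher under both scalings, fewer in proportion than the 12.2% of all genes. *Atp5e*, the epsilon subunit in the central stalk of ATP synthase, had 1408 and 1246 CPM in IL cells, above the 1058 of vascular endothelia in pool 1, the highest value elsewhere (1.17 ± 0.25). *Ndufa5*, a complex I subunit, had 270 and 273 CPM, which was higher than the 212 and 217 of pituicytes and lay between the 362 and 152 of epithelial-like cells (1.63 ± 0.34, adjusted p = 2.69e-05, edgeR). Both stayed called in all 11 alternatives. *Ndufv3*, another complex I subunit, had 480 and 417 CPM (1.19 ± 0.28), and 6 UMIs put VLMC of pool 1 at 707. The call of *Ndufv3* was lost with DESeq2. The TMM call of *Ndufb8* (1.56 ± 0.59), of complex I, was lost with library size, at an adjusted p of 0.220 in edgeR.

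T-cell like cells had 2 nuclear genes that were higher under both scalings, while 9.14% of all genes were. *Cox5a*, a nuclear subunit of complex IV, had 783 CPM in pool 1 and 447 in pool 2, above every other pool, of which macrophage/microglia in pool 1 was next at 338. Its log2 fold change was 2.38 ± 0.37 (adjusted p = 3.34e-09, edgeR) and fell short without pool 1 of these cells (adjusted p = 0.104). *Atp5c1*, the gamma subunit that turns inside ATP synthase, had 346 and 619 CPM, both above the 305 of macrophage/microglia in pool 1 (1.64 ± 0.39, adjusted p = 0.000393). It fell short without pool 2 (adjusted p = 0.0956). The pair rested on 43 and 13 UMIs for *Cox5a* and 19 and 18 for *Atp5c1*. *mt-Co1*, *mt-Co2* and *mt-Co3*, of the same complex as *Cox5a*, were lower in these cells.

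In macrophage/microglia, *Cox7a2l*, which takes part in joining complexes III and IV into supercomplexes, had 632 and 510 CPM against 174 and 292 in pituicytes and 281 and 429 in IL cells. T-cell like cells had as much, 583 and 584, and VLMC had 0 and 795. The TMM call (1.13 ± 0.29, adjusted p = 0.000764, edgeR) was lost with library size (0.57, adjusted p = 0.191), as were those of *Cox5a* and *Sdhb*.

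**Figure D4:**
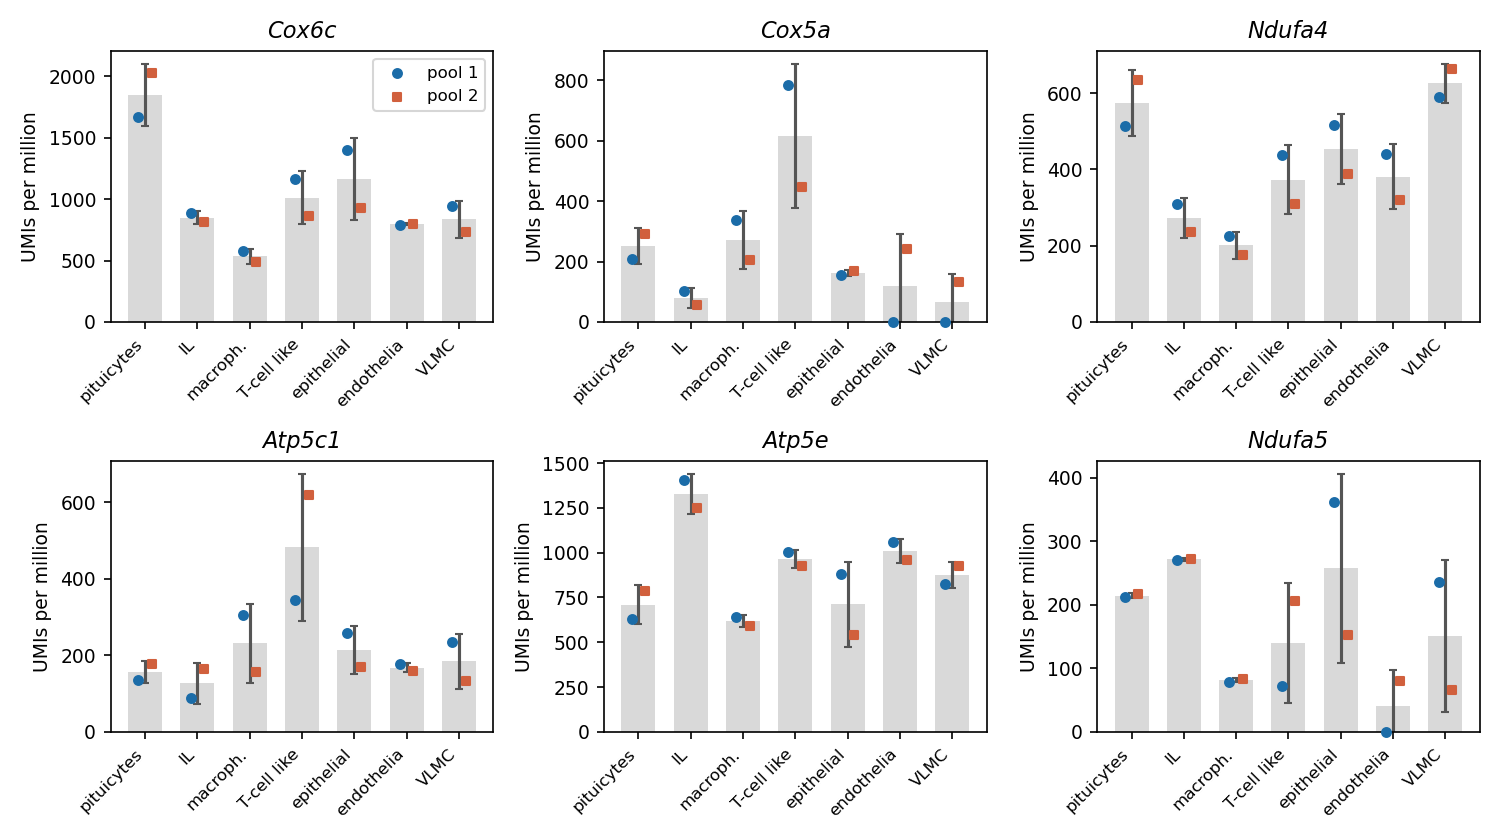
CPM of 6 nuclear genes by cell type. Bars are means of 2 pools with the SD, circles pool 1 and squares pool 2. *Cox6c* peaks in pituicytes, *Atp5e* in IL cells, and *Cox5a* and *Atp5c1* in T-cell like cells, where the pools differ by 783 against 447 for *Cox5a*.

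IL cells and pituicytes were compared directly, as the types with the most counts behind each gene. Under both scalings, 4 nuclear genes differed. *Cox5a* (103 and 56.1 CPM in IL cells, 208 and 292 in pituicytes) was lower in IL cells by a log2 fold change of −1.50 ± 0.38 (adjusted p = 0.000709, edgeR). *Cox6c* (885 and 813 against 1668 and 2028) was lower by −1.001 ± 0.34 (adjusted p = 0.0203) and *Ndufa4* (309 and 236 against 513 and 635) by −0.95 ± 0.33 (adjusted p = 0.0249). *Atp5e* (1408 and 1246 against 632 and 785) was higher by 1.02 ± 0.34 (adjusted p = 0.0164). *Atp5g2*, 1 of 3 genes for subunit c of the ATP synthase ring, was called higher with TMM alone (459 and 481 against 246 and 304, 0.88 ± 0.34). For none of the 5 did the pools of the types overlap.

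Of the 3 lower genes, 2 carry complex IV names and *Ndufa4* is counted with complex I by its symbol, and both higher genes carry complex V names. These are 3 of 73 (4.11%) and 2 of 73 (2.74%) nuclear genes tested, where 11.7% and 8.96% of all genes were called lower and higher with TMM, and 11.7% and 8% under both scalings. With any of the 4 sums left out, *Atp5e*, *Cox6c*, *Ndufa4* and *Atp5g2* missed the threshold, and *Cox5a* did so without pool 2 of either type and with DESeq2. The 10% limit, which removed most pituicytes, also ended the calls of all but *Cox5a*. The mt- genes had a median of −0.40 and ran from −0.68 to −0.18, and none was called with TMM. edgeR gave 1 an unadjusted p under 0.05, library size called *mt-Nd1* lower (12.8% of genes), and DESeq2 called none.

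By complex, with genes placed by symbol, the nuclear shares followed partly different orders. Of the UMIs outside mt- genes, pituicytes gave 1.008% and 1.14% to complex I genes, IL cells 0.923% and 0.845% and macrophage/microglia 0.527% and 0.499%. Complex II genes, the sparsest, had 0.0405% and 0.0463% in pituicytes, just above the 0.0394% and 0.0367% of macrophage/microglia. Complex III genes had 0.339% and 0.394% in pituicytes and 0.199% and 0.182% in T-cell like cells, which overlapped with vascular endothelia (0.206% and 0.182%). Complex IV genes had 0.825% and 0.9997% in pituicytes and 0.796% and 0.676% in T-cell like cells, above the 0.669% and 0.649% of IL cells and the 0.581% and 0.487% of macrophage/microglia. For complex V, pituicytes had 0.608% and 0.689%, IL cells 0.731% and 0.6503% and T-cell like cells 0.709% and 0.619%, which all overlapped. Pituicytes were thus highest, among the 4 largest types, for complexes I, II, III and IV and not for complex V. The margin for complex II was narrow, and its counting error was not estimated. Among the small types, epithelial-like cells of pool 1 lay above both pituicyte pools for complex I (1.18%). For complex II, pool 1 of epithelial-like cells (0.0463%) equalled the higher pituicyte pool and pool 1 of VLMC (0.0515%) exceeded both. In pool 2 these types lay below both pituicyte pools for these complexes.

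Of the 3 most abundant nuclear genes of each complex, by mean over the 14 sums, *Cox6c*, *Atp5e*, *Ndufa4*, *Uqcr11* and *Sdhb* are given above. Among the others, *Cox8a* (complex IV) ran from 480 CPM in vascular endothelia to 1385 in pituicytes of pool 2, *Cox7c* from 529 to 1239, *Uqcrh* (complex III) from 236 to 710, and *Ndufa2* (complex I) from 265 to 686. *Uqcrb* of complex III was low in T-cell like cells, at 127 and 241 CPM, against 293 to 592 in the pools of all other types but vascular endothelia (264 and 320). *Atp5l* and *Atp5j2* of complex V had 760 and 773, and 590 and 655, in pituicytes, and 946 and 785, and 537 and 453, in IL cells. Complex II was sparse, *Sdha* having 106 and 166 CPM in pituicytes and *Sdhc* 76.4 and 55.2. *Ndufa3* was highest in T-cell like cells (601 and 516), which overlapped with pituicytes (407 and 540).

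Several subunits have isoform genes, and nearly all UMIs fell on the broadly expressed isoform. *Cox4i1* had 641 and 817 CPM in pituicytes while *Cox4i2*, the isoform linked to low oxygen, had 1 UMI in all. *Cox6a1* had 437 and 604 there, and the muscle and heart isoforms *Cox6a2*, *Cox7a1* and *Cox8b* stayed at no more than 3 UMIs in any sum. *Cox7a2* (522 and 718) and *Cox7b* (395 and 371) were seen in every sum, and *Ndufa4l2* had 2 UMIs at most. *Cox6b2* was the exception, with 13 and 21 UMIs in pituicytes (55.2 and 82.8 CPM) beside *Cox6b1* at 441 and 580. *Cox6b2* had 2 and 0 UMIs in IL cells and at most 3 in any other sum. In vascular endothelia and VLMC even 0 UMIs over both pools would allow up to 126 and 127 CPM. These 2 types can therefore not be placed below pituicytes for *Cox6b2*. Of the 3 subunit c genes, *Atp5g1* had 267 and 398 CPM in pituicytes and 412 and 397 in IL cells, and *Atp5g3* 174 and 276 against 231 and 220, so that *Atp5g2* alone separated these types.

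Promoters were read because nuclear respiratory factors are known regulators of these genes. The 250 bases before the start site (RefSeq, GRCm38.p6) were found for 76 of the 92. The letters bound by nuclear respiratory factor 1 (NRF1), here GCGCA, then any base, then GCGC, stood on either strand in 14 of the 76 (18.4%), beside 4.23% of 27025 genes. The letters CCGGAAG, bound by ETS factors such as GABP, stood in 13 (17.1%) beside 7.83%, and AAGATGGC of YY1 in 2 (2.63%) beside 1.83%. A gene with several start sites counted when any of its windows matched, and among genes with 1 window NRF1 letters stood in 17.1% of 70 members and 3.82% of all. CCGGAAG and AAGATGGC can share their AAG, and a match does not show binding. The windows of 3 genes described above follow, *Atp5c1* and *Cox5a*, which were higher in T-cell like cells, and *Atp5e*, which was higher in IL cells. They are written 5′ to 3′ on the gene's strand, from the most upstream start site, with matches in capitals.
Atp5c1 (chr2:10080511-10080760, reverse strand, no match): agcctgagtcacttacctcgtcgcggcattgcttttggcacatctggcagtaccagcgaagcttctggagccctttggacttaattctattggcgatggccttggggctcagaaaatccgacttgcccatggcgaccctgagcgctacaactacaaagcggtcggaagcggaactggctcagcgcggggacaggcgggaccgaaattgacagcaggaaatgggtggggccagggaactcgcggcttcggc
Cox5a (chr9:57520982-57521231, forward strand, no match): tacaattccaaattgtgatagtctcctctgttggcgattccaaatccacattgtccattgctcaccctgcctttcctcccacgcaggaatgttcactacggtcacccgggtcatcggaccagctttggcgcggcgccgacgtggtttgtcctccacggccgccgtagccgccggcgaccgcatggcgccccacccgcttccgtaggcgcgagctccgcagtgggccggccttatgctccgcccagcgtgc
Atp5e (chr2:174464102-174464351, reverse strand, ETS letters on the opposite strand from base −102): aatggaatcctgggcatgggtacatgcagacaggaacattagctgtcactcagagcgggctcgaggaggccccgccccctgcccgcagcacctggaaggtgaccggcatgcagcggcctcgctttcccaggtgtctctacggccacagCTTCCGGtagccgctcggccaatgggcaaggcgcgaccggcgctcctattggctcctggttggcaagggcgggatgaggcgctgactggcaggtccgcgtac
*Atp5c1* counts among the 14 through a second start site further downstream, whose window is not shown.

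Across the 11 clusters, the authors' pooled means placed the mt- share between 4.72% (T-cell like) and 19.8% (pituicytes c) and the nuclear share of the rest between 1.61% (microglia a/macrophage) and 3.10% (pituicytes b). Both shares rose together across clusters (Pearson's r = 0.724, Spearman's rho = 0.809, n = 11), a description only, since the clusters share 2 libraries. In single pools r was 0.577 and 0.729.

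Within a type the shares parted. Clusters were built from these cells, so differences between them are described and not tested, as values scaled to 1000000 UMIs outside mt- genes that do not overlap between pools. IL cells came in an a cluster (mt- share 8.41% and 8.06%) and a b cluster (12.1% and 12.3%). Of 13 mt- genes, 11 were higher in b in both pools, where 22.8% of 5228 genes were, whereas 37 of 77 nuclear genes were lower in b, where 14.9% of genes were, and 3 were higher. Median log2 ratios of b to a were 0.53 for mt- genes, −0.31 for nuclear genes and 0.10 for all genes. *mt-Co1* went from 16403 and 14549 in a to 30417 and 29314 in b, *Ndufa4* from 496 and 309 to 191 and 191, *Uqcrfs1*, the Rieske subunit of complex III, from 157 and 177 to 39.9 and 101, and *Atp5c1* from 126 and 221 to 71.8 and 123. These genes are named after their values were seen. Cells of b were also deeper, with median UMIs of 3510 and 3981 against 2840 and 3202, and the part of depth was not tested.

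In pituicytes the clusters differed more often in mt- genes than in nuclear members, and many other genes differed too. The mt- share was 11.2% and 9.72% in pituicytes a, 16.9% and 15.2% in b, and 19.1% and 16.7% in c. Median UMIs of a cell were 1731 and 2639 in a, 1393 and 1493 in b, and 2350.5 and 3252 in c. The part of depth was not tested here either. Against a, 10 of 13 mt- genes were higher in c (16.6% of genes) and 9 in b (13.1%), with median log2 ratios of 0.85 and 0.68. Nuclear genes split, 11 higher and 12 lower of 77 in c, near the 16.6% and 17.6% of all genes. In b, 6 of 76 were higher and 7 lower, beside 13.1% and 18.9% of all genes. In microglia b/macrophage, 5 of 11 mt- genes were lower than in microglia a/macrophage (24.2% of genes) and 17 of 67 nuclear genes were higher (17.9%) and 8 lower.

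**Figure D5:**
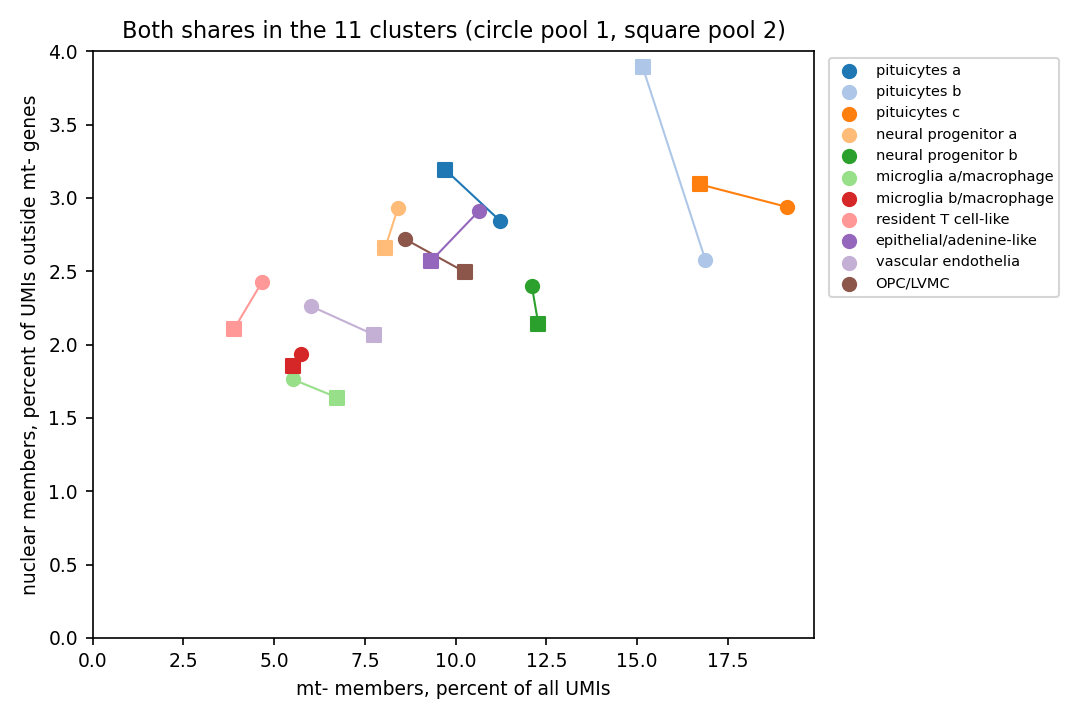
Nuclear share (percent of UMIs outside mt- genes) against mt- share (percent of all UMIs) in the 11 clusters, with lines joining pool 1 (circles) and pool 2 (squares). Neural progenitor a and b are IL cells. Pituicytes c reach 19.1% on the horizontal axis, and neural progenitor b lies to the right of and below neural progenitor a in both pools.

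The pools differed most in pituicytes. All 12 tested mt- genes were lower in pool 2 (median log2 ratio −0.48), whereas 60 of 73 nuclear genes were higher (median 0.29). Of all genes, 2556 of 4510 were higher (median 0.09). The mt- shares of 16.2% (95% Wilson interval 16.1% to 16.4%) and 12.3% (12.1% to 12.4%) differed by far more than counting error, and each pool is 1 sample. Pool 2 held 53 pituicytes of cluster a and 16 of c, pool 1 34 and 38. Epithelial-like cells also had all 12 lower in pool 2 (median −0.22), where 2232 of 4510 genes were higher. In the types other than pituicytes the median over mt- genes stayed between −0.29 and 0.28. Over the 4 largest types, median ratios were lowest for *mt-Nd4l* (−1.10), *Cox5a* (−0.74) and *Ndufb4* (−0.63) and highest for *Atp5c1* (0.59) and the assembly factors *Ndufaf1* (0.53) and *Ndufaf4* (0.40), of which *mt-Nd4l*, *Ndufaf1* and *Ndufaf4* rested on 0 or 1 UMI in some sums.

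Genes that serve the same pathway without belonging to the complexes were counted from 7 lists, 93 of 193 genes being tested. In pituicytes TMM called 19 higher and library size 11, beside 20.9% and 14.9% of all genes, and in IL cells 16 and 6, beside 21.8% and 12.2%, with none lower with TMM in either. Against pituicytes, IL cells had 3 higher and 10 lower with TMM, beside 8.96% and 11.7% of all genes. Several genes named here had no UMI in a small type, so that their fitted changes against all other types have no fixed size, namely *Ucp2*, *Sdhaf4* and *Mrpl30* in VLMC, *Ldha* and *Mrps36* in vascular endothelia and *Nrf1* in both. Mitochondrial ribosome genes, which build the proteins of the mt- messages, had 3 of 41 called higher in pituicytes and 3 in IL cells with TMM, beside 20.9% and 21.8% of all genes. *Mrps14* was higher in pituicytes under both scalings (1.21 ± 0.34), and *Mrps36* in pituicytes (1.66 ± 0.63) and *Mrpl30* in IL cells (1.83 ± 0.60) were called with TMM alone.

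Among carriers, *Slc25a4*, an ADP/ATP exchanger of the inner membrane, had 488 and 667 CPM in pituicytes and 67.7 and 74.1 in macrophage/microglia, being higher in the former (1.58 ± 0.27) and lower in the latter (−1.68 ± 0.45). Its paralog *Slc25a5* had 601 and 241 in T-cell like cells and 102 and 98.6 in pituicytes (1.92 ± 0.39 in T-cell like cells). *Ucp2*, a carrier of the uncoupling protein family, had 541 and 417 in macrophage/microglia (3.04 ± 0.43) and 0 of 23589 UMIs in VLMC. Of the inhibitor and assembly genes, *Atpif1*, which blocks ATP hydrolysis by complex V, had 835 and 882 in IL cells against 395 and 383 in pituicytes (1.68 ± 0.26 in IL cells). *Sdhaf4*, a complex II assembly factor, was higher in pituicytes (178 and 103, 2.77 ± 0.58) and IL cells (114 and 112, 2.54 ± 0.60), and *Cox14*, for complex IV, in both as well (1.33 ± 0.36 and 1.44 ± 0.36).

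*Slirp*, which stabilizes mt- messages, had 238 and 398 CPM in pituicytes (1.52 ± 0.32) and 3 and 0 UMIs in T-cell like cells (−2.16 ± 0.76, adjusted p = 0.0336, edgeR). Of the regulators only *Nrf1* and *Esrra* were tested. *Nrf1* was higher in T-cell like cells on 5 and 3 UMIs (3.54 ± 1.13), and *Esrra* lower in IL cells than in pituicytes, on 2 and 0 against 11 and 12 UMIs (−3.18 ± 0.91). Of the citric acid cycle list, *Suclg2* (succinate-CoA ligase) had 10.7 and 20.04 CPM in IL cells against 89.1 and 63.1 in pituicytes (−2.14 ± 0.62), and *Mpc1*, of the mitochondrial pyruvate carrier, 28.4 and 60.1 against 140 and 122 (−1.46 ± 0.44). Of 12 tested glycolysis genes, TMM called 4 higher in pituicytes, 3 in IL cells and 3 in macrophage/microglia, beside 20.9%, 21.8% and 19.8% of all genes. *Hk2*, a hexokinase, had 47 and 80 UMIs in macrophage/microglia (530 and 741 CPM) and at most 3 in any other sum. *Aldoc*, an aldolase of glia, had 1398 and 626 CPM in epithelial-like cells and 407 and 359 in pituicytes, against 74.7 and 100 in IL cells (−2.02 ± 0.36). *Ldha*, a lactate dehydrogenase, had 437 and 103 in T-cell like cells (2.43 ± 0.59).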

How the data were processed

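Single-cell libraries of 2 pools were described. The deposited UMI counts per gene and barcode were made by the authors with Cell Ranger 2.0.0 (1500 forced cells) on mm10. The authors' table held normalized expression scores, the mean per cluster of counts scaled per cell to 10000, made with Seurat 2.3. Cells of 400 to 5000 genes, 1000 to 10000 UMIs and a mitochondrial share under 25% were kept as the study states, and their clusters were solved back from that table, where each cell took a weight of at least 0.981 in its own cluster. Doublets were neither called nor removed. Clusters were merged into 7 types, and counts were summed per type and pool into 14 sums.

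Genes with 5 counts in enough sums and 15 in all (4510) were fitted with edgeR 4.0.16 in R 4.3.3 (quasi-likelihood test, TMM, 7 residual degrees of freedom), each type against the mean of the others and IL cells against pituicytes, two-sided, with Benjamini-Hochberg adjustment over all genes. No type had over 2 sums, and the sums of a pool share mice and library, so pools pair the sums by design. The fit with pool as a replicate block gave 22 nuclear genes higher in IL cells and 3 in T-cell like cells, and the counts of the other contrasts did not change. The fit was also run on simulated counts, whose outcome is not given here. There all types shared the same base profile, apart from genes changed in a single type, equally often up and down. Such counts lack the many type differences of the data, and no conclusion on the scaling is drawn from them. Alternatives were library size, DESeq2 1.42.0, no filter, a 10% mitochondrial limit, types from marker lists, mt- genes left out, the replicate block and each sum left out. Subtraction of free RNA and a fit of the 4 largest types were added after values were seen.

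The rule for named genes took all mt- genes, the 3 most abundant nuclear genes of each complex, isoform families, the 5 largest called changes per contrast and direction, the 3 largest of each pathway list, and the 3 highest and lowest pool ratios. The rule, the gene group and the lists were chosen with earlier results of these data known. UMIs count 3′ ends, so levels were compared between cells rather than between genes. The exceptions are the choice of the most abundant genes, the isoform families and the ratio of *mt-Nd1* to *mt-Co1*. No column of per-sample values was left out. Results of 2 genes that the rule named are not reported here.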

Additional observations from a re-analysis of the deposited data

Results flagged for a closer look

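Low-UMI barcodes, which enter comparisons between cell types only through the subtraction of free RNA, held a strong mt- signal. In pool 1 the 157608 barcodes with 1 to 50 UMIs had 50.6% of their 1892289 UMIs on mt- genes, against 16.2% in the pituicytes and 4.67% in the T-cell like cells of that pool.

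The filter on the mitochondrial share removed 83 barcodes that met all other limits, 56 in pool 1 and 27 in pool 2. Their mt- shares ran from 25.4% to 66.0% with a median of 33.9%, and by marker genes 54 were typed as pituicytes, 13 as IL cells, 7 as macrophage/microglia, 5 as vascular endothelia, 2 as epithelial-like cells and 2 as VLMC. Among kept cells this typing matched the authors' type for 476 of 528. It also put 9 pituicytes with the 13 matched vascular endothelia, 7 pituicytes with VLMC and 12 IL cells with epithelial-like cells. Counts for these small types are therefore uncertain.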

How the results depend on the processing

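Counts of called genes are those of edgeR with TMM unless named otherwise, and the cause of a change was not tested. No share over all genes is given beside the counts below, so they do not show whether members changed more than other genes. The fit with no filter tested more genes than the main fit, and the fit of the 4 largest types tested 7353. DESeq2 called 8 of the 12 mt- genes that edgeR called higher in pituicytes. Of the 12 mt- genes called higher in pituicytes, a 10% mitochondrial limit left 0 and leaving out a replicate 6 to 12. The 22 nuclear genes higher in pituicytes became 8 with library size, 3 with DESeq2, 39 with no filter, 7 with the 10% limit, 6 with marker typing, 10 in the fit of the 4 largest types and 7 to 15 without a replicate. The 7 mt- genes higher in IL cells became 3, 1, 2 (10% limit), 1 (marker typing), 4 (4 types) and 1 to 4 in the same order without the filter, and the 20 nuclear ones 3, 4, 7, 7, 9 and 3 to 12. In macrophage/microglia the 3 nuclear genes called higher became 0 with library size, DESeq2 and the 10% limit, 1 with marker typing and 4 types, and 2 without either replicate. Nuclear genes called lower there rose from 0 to 7 with library size, 4 with DESeq2 and 3 with marker typing and 4 types, and mt- genes from 0 to 4 and, with 4 types, 1. The 5 mt- genes lower in T-cell like cells became 9 with library size, DESeq2, marker typing and free RNA subtracted, 10 with 4 types, and 0 with the 10% limit or without either replicate. The 2 nuclear genes higher there became 1 without either replicate, and 0 lower became 2 with library size, marker typing and 4 types and 1 with DESeq2. In vascular endothelia the 6 mt- genes became 0 with library size, the 10% limit, marker typing or without either replicate, 2 with DESeq2 and 3 with free RNA subtracted, and the single nuclear gene 0 under these, DESeq2 and no filter. In epithelial-like cells 0 became 2 with library size, 1 with marker typing and 0 to 1 without a replicate. Between IL cells and pituicytes the 2 genes higher became 1 with library size or free RNA subtracted and 0 with no filter, the 10% limit or any replicate left out. The 3 lower became 1 with the 10% limit and 1 to 2 without a replicate, and mt- genes went from 0 to 1 with library size, free RNA subtracted, and 0 to 1 without a replicate. With library size, pathway genes called higher were 11 in pituicytes and 6 in IL cells, and 1 was lower. Directions reversed for *Atp5l* (−0.044) in pituicytes with marker typing, *mt-Nd3* (−0.11) and *mt-Nd5* (−0.041) in pituicytes with the 10% limit, and *Atp5l* (0.26) and *mt-Co2* (0.069) in vascular endothelia with marker typing. The mean mt- share moved with the 10% limit, which removes cells by that share, to 6.79% in pituicytes, 7.35% for IL cells, 4.32% for macrophage/microglia, 5.01% in epithelial-like cells and 7.30% in VLMC. With no limit and all cells typed by markers, it was 17.98%, 11.2%, 8.40%, 11.01% and 11.9% in these, and 11.3% in vascular endothelia. Both the limit and the typing differ there from the main setting, so these values do not show the limit alone. Free RNA subtracted left IL cells at 7.56%, macrophage/microglia at 3.34%, T-cell like cells at 1.49%, epithelial-like cells at 7.45%, vascular endothelia at 4.21% and VLMC at 6.87%. Marker typing gave 9.02% in vascular endothelia and 10.7% in VLMC, and medians over cells 4.40% for macrophage/microglia and 5.12% for vascular endothelia. Nuclear shares moved to 2.56%, 1.63%, 2.99% and 2.86% as medians over cells in pituicytes, macrophage/microglia, epithelial-like cells and VLMC, and to 3.08% in vascular endothelia and 2.86% and 2.88% in VLMC with no limit and with marker typing. The replicate block changed no count by over 1.5 times. Depth limits the small types, where 1 UMI more or less moves a sparse gene.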

Other observations

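The balance of 2 mt- messages differed between types, a pattern chosen after its values were seen and not tested. UMIs of *mt-Nd1*, of complex I, per UMI of *mt-Co1*, of complex IV, were 0.743 and 0.946 in macrophage/microglia of pools 1 and 2, 0.510 and 0.461 in pituicytes, and 0.387 and 0.410 in IL cells, so that these 3 types did not overlap. T-cell like cells had 0.526 and 0.701 and epithelial-like cells 0.513 and 0.529. In the types with few UMIs the pools lay far apart, at 1.33 and 0.686 in VLMC and 0.677 and 0.343 in vascular endothelia, which crossed the ranges of the others. Within macrophage/microglia the a cluster had 0.912 and 1.007 and the b cluster 0.586 and 0.724. The free RNA of pool 1 had 0.579.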
